A study of Homo sapiens with 6 samples.

Results

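The 9 genes described here encode proteins that bind acylated lysines on histones: DPF1, DPF2 and DPF3, which carry a double PHD finger, MLLT1, MLLT3, YEATS2 and YEATS4, which carry a YEATS domain, and BRD2 and BRD3, bromodomain proteins of the BET family. They were taken as a list of names, 9 of 62663 annotated genes and of 20033 protein-coding genes. All ChIP-seq peaks that touched a gene body or the 5 kb on either side of it were taken as the peaks of that gene. This gave 51 of 70326 peaks of acetylated lysine (Kac) in control cells, 53 of 63282 Kac peaks in cells treated with sodium benzoate (SB), and 18 of 24308 peaks of benzoylated lysine (Kbz) in SB-treated cells.

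The samples are labelled as HepG2, a cell line established from a human liver tumour, grown in DMEM with 10% FBS. SB was given at 10 mM for 24 h, and control cells received none. In ChIP-seq, chromatin fragments are enriched with an antibody and their DNA is sequenced. The antibodies here were pan antibodies that recognise the modified lysine without telling which histone or residue carried it. The series held 6 ChIP-seq libraries in 6 groups, an input, a Kac and a Kbz library for each treatment. The peak lists of 3 libraries entered the comparisons, since the labels give no peaks for control Kbz and the inputs were not analysed here. With 1 library per group there were no replicates, so no difference between lists was tested.

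Histone acylation is laid down from acyl-CoA molecules, and reader proteins carry it on to other machinery. Double PHD fingers, YEATS domains and bromodomains differ in the pocket that holds the acyl chain, and the YEATS and double PHD finger families are known for taking up chains longer than acetyl, while BET bromodomains prefer acetyl-lysine. What was measured at the genes below is the marking of their own chromatin, not the binding of their proteins.

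The peak lists carry no read totals, so the depth of each library is unknown, and deeper sequencing alone can raise the number of peaks. The fold of a peak, its read density over the background, was therefore compared only inside a list and is given as a percentile, the percent of that list's peaks with a lower fold. The label of the cells was checked against 13 liver markers. A Kac peak lay within 3 kb of a transcription start site (TSS) of 7 of them in control and of 8 in SB, and a Kbz peak at 3. The genes of albumin (ALB), apolipoprotein B (APOB), fibrinogen beta (FGB) and the liver factor FOXA2 had 0 peaks in all 3 lists, and SERPINA1 had no promoter peak in any list. AFP had one in SB Kac only. Promoter Kac peaks were also found at 2 of 4 blood, 2 of 2 muscle and 2 of 2 brain markers. Defining liver genes thus lacked peaks, and the cells are called by their label only. How far this bears on the values at the reader genes was not tested.

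All 9 reader genes had a promoter peak, meaning a peak within 3 kb of any annotated TSS, in each of the 3 lists. This is common: of all protein-coding genes, 76.5% had a promoter peak of control Kac, 75.7% one of SB Kac and 64.6% one of Kbz, and 64.1% had one in all 3. When peaks under a −log10 q of 5 were dropped, a promoter peak remained at 5 genes in control Kac, at 8 in SB Kac and at 5 in Kbz, against 53.0%, 58.7% and 45.4% of coding genes. A peak anywhere in the gene body plus 5 kb was present at all 9 in each list, against 82.6%, 81.4% and 72.3% of coding genes. The canonical TSS itself lay under a peak at 7 of 9 reader genes in each list, against 59.1%, 60.4% and 45.8% of coding genes. The exceptions were MLLT1 and BRD3, in every list.

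**Figure D1:**
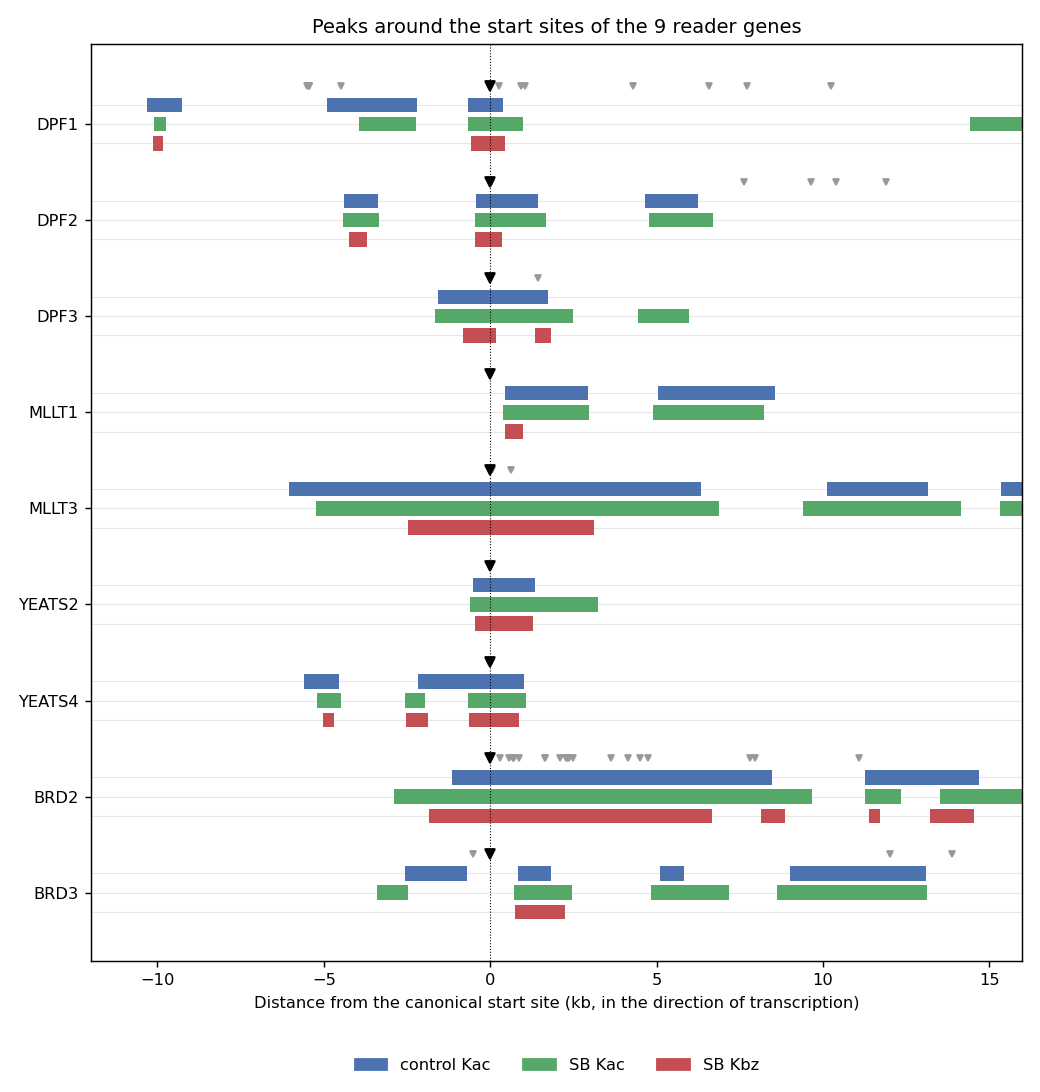
Peaks of each list around the canonical TSS of the 9 reader genes, with position in kb along the direction of transcription on the x axis and 1 row per list. Bars are peaks, the black triangle marks the canonical TSS and grey triangles mark other annotated starts. At MLLT1 and BRD3 no bar lies at the position of the black triangle.

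The DPF proteins are subunits of the BAF chromatin remodelling complex, in which DPF2 is found in most tissues, DPF1 mainly in neurons and DPF3 in heart and muscle. At their 3 genes there were 11 peaks of control Kac, 14 of SB Kac and 6 of Kbz. DPF1 (chr19:38211006-38229714, minus strand) had a promoter peak over its canonical TSS in every list, from 657 bp upstream to 376 bp downstream in control Kac, from 659 bp upstream to 1000 bp downstream in SB Kac and from 563 bp upstream to 452 bp downstream in Kbz. These peaks stood at the percentiles 87.6, 83.6 and 73.0 of their lists. A further Kac peak stood farther upstream, between the canonical TSS and an alternative start 5492 bp upstream of it. It reached from 2203 to 4914 bp upstream in control and from 2.21 to 3.94 kb upstream in SB, with no Kbz peak on it. Another annotated start of DPF1 lay inside this peak in control, but not in SB. The marks at the canonical TSS of DPF1 thus coincided, while the second Kac region was without Kbz.

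DPF2 and DPF1 each had a Kbz peak outside the gene and outside any annotated promoter. At DPF2 (chr11:65333843-65354262, plus strand) this peak, chr11:65329619-65330138, lay 3714 to 4233 bp upstream of the canonical TSS. Its percentile was 93.3 in Kbz, and the Kac peaks over it stood at 96.9 in control and 96.4 in SB. The promoter peaks of DPF2 stood lower, at 61.9, 85.9 and 56.6. The strongest marking near DPF2 was therefore not at its promoter in any of the 3 lists. At DPF1 the upstream Kbz peak stood at the percentile 30.3, with Kac at 75.5 and 74.1. The nearest other coding gene to the DPF2 peak was CDC42EP2, at 12577 bp. The middle 200 bp of the DPF2 Kbz peak is printed (hg38, in the direction of the gene) because this peak outranked the promoter of its gene in all 3 lists while lying at no annotated promoter. Capitals mark CpG. The DPF2 stretch, chr11:65329779-65329978 on the plus strand, had 39.5% GC and 2 CpG.
DPF2 upstream peak: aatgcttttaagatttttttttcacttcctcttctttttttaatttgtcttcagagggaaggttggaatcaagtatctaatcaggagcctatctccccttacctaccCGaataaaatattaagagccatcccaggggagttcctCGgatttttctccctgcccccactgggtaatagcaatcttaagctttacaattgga

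DPF3 (chr14:72609034-72894101, minus strand) is a gene of 285 kb. Its TSS lay under a Kac peak from 1566 bp upstream to 1734 bp downstream in control and from 1650 bp upstream to 2485 bp downstream in SB, at the percentiles 63.4 and 68.3. Inside that stretch Kbz was called as 2 separate peaks, one over the TSS at the percentile 33.0 and one 1355 to 1840 bp downstream at 23.9. Outside that stretch DPF3 held Kac peaks at percentiles from 5.78 to 59.9 and no Kbz. The 2 control Kac peaks near the 3' end, of 4161 and 2642 bp, touched exons, and the one of 4161 bp was without an SB Kac peak. A single short SB Kac peak of 845 bp lay within the other. DPF3 had 3 control Kac peaks without SB Kac and 3 SB Kac peaks without control Kac, and shared its TSS peak and the exonic one. Its window was covered to 4.12%, 2.49% and 0.510% by control Kac, SB Kac and Kbz, all below the medians of coding genes. Against the coding genes of at least 100 kb, whose medians were 3.17%, 3.18% and 0.838%, only its control Kac share was higher.

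MLLT1 (ENL) and MLLT3 (AF9) are subunits of the super elongation complex and bind the H3K79 methyltransferase DOT1L. YEATS2 belongs to the ATAC acetyltransferase complex, and YEATS4 (GAS41) to the TIP60 and SRCAP complexes. At the 4 genes there were 33 peaks of control Kac, 30 of SB Kac and 6 of Kbz, unevenly spread: MLLT3 alone had 25 and 22 of the Kac peaks and 1 Kbz peak. YEATS2 (chr3:183697797-183812624, plus strand) was the reverse. Over 115 kb it had 1 peak in each list, all at the TSS, reaching from 531 bp upstream to 1334 bp downstream in control Kac, from 615 bp upstream to 3245 bp downstream in SB Kac and from 466 bp upstream to 1289 bp downstream in Kbz. Its percentiles were 78.6, 80.2 and 54.6.

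YEATS4 (chr12:69359710-69390870, plus strand) had the second highest promoter percentile of the 9 in every list, 97.3, 94.9 and 89.3. The peak over its TSS spanned 3182 bp of control Kac and 1750 bp of SB Kac, and the Kbz peak 1509 bp. In SB, a separate Kac peak and a separate Kbz peak lay 1.87 to 2.56 kb upstream, where the single control Kac peak reached 2172 bp upstream. The Kbz one had a q of 0.0172, taken from the −log10 q averaged over the peak. At 1 other Kbz peak of the 9 genes, at MLLT1, this averaged q was also above 0.01, the FDR stated for the calls. Such an average does not tell whether a call passed that FDR. Another Kbz peak, 4.71 to 5.04 kb upstream, lay at the start of the non-coding gene ENSG00000257764 and stood at 16.3, with Kac at 88.7 and 79.7 there.

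MLLT1 (chr19:6210381-6279975, minus strand) had the weakest promoter Kbz of the 9. Its single Kbz peak was 544 bp long, lay 440 to 983 bp downstream of the TSS, stood at the percentile 7.91 and had an averaged q of 0.0196. The Kac peaks there, 440 to 2933 bp downstream in control and 377 to 2976 bp in SB, stood at 52.6 and 76.9. A Kac peak without Kbz lay at another annotated start 61.6 to 63.0 kb downstream in control, at 61.9 in control and 67.4 in SB. The Kac peaks nearest to the TSS of MLLT1 thus stood above the median fold of their lists, while the Kbz peak was near the bottom of its own.

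BRD2 and BRD3 bind acetylated histones through paired bromodomains and take part in transcription by RNA polymerase II. BRD2 (chr6:32968594-32981505, plus strand) was the most heavily marked reader gene. The peak over its TSS spanned 9631 bp of control Kac and 12567 bp of SB Kac, and the Kbz peak 8505 bp, at the length percentiles 99.0, 99.6 and 99.8 and the fold percentiles 99.6, 99.6 and 97.9. Control Kac peaks covered 57.0% of its window, SB Kac peaks 72.3% and Kbz peaks 47.5%. The gene has 22 annotated starts, and all 9 of its peaks over the 3 lists counted as promoter peaks by its own starts. It lies beside HLA-DMA, and in each list the peak over the TSS of BRD2 also covered a start of HLA-DMA. The marking of that peak therefore cannot be assigned to BRD2 alone.

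BRD3 (chr9:134030305-134068535, minus strand) had peaks on both sides of its canonical TSS and none over it. In control Kac the nearest were 834 to 1827 bp downstream and 699 to 2563 bp upstream, and in SB Kac 731 to 2463 bp downstream and 2465 to 3409 bp upstream. Kbz had the downstream peak only, 741 to 2258 bp from the TSS. The downstream peaks stood at 69.1, 92.9 and 69.4, and the upstream Kac peaks at 23.2 and 45.1. A Kac region 8.61 to 13.1 kb downstream in SB, at 61.2, had no Kbz peak. At the 3' end, 41.8 to 42.1 kb downstream, a Kbz peak at 27.4 lay at the promoter of the neighbouring transcript gene BRD3OS, with Kac at 33.3 and 75.2.

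**Figure D2:**
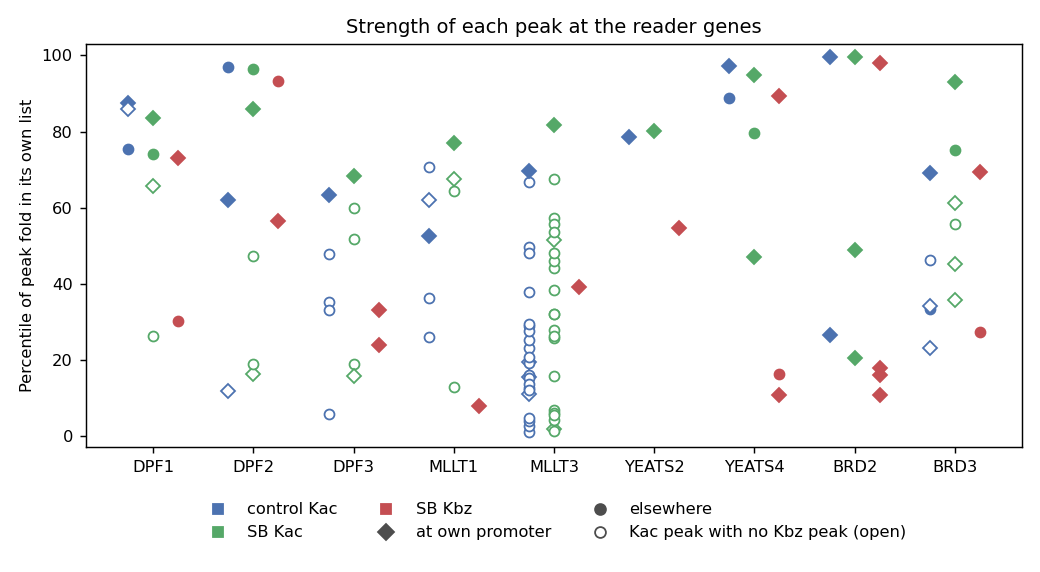
Fold percentile of every peak at the 9 reader genes, on an axis from 0 to 100, for control Kac, SB Kac and Kbz. Diamonds are peaks at a promoter of their own gene, circles are other peaks, and open symbols are Kac peaks with no Kbz peak. Among the diamonds, BRD2 and then YEATS4 reach the highest values in all 3 lists. MLLT1 has the lowest Kbz value, 7.91.

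The order of the promoter percentiles was led by BRD2 and then YEATS4 in each list. In Kbz it went on with DPF1, BRD3, DPF2, YEATS2, MLLT3 and DPF3 and ended with MLLT1. In SB Kac the lowest were DPF3 at 68.3 and MLLT1 at 76.9, and in control Kac DPF2 and MLLT1 at 61.9 each. With no replicates, the spread that would tell neighbours in this order apart is unknown.

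MLLT1 and BRD3, the genes whose TSS was under no peak, had the most GC-rich starts of the 9. Within 250 bp of the canonical TSS, GC was 80.6% at MLLT1 and 84.8% at BRD3, against 53.8% to 74.8% at the others and a median of 64.6% over coding genes. The same gap was seen in the whole annotation. Of coding genes with a promoter peak, the canonical TSS was uncovered at 22.8% (control Kac), 20.2% (SB Kac) and 29.2% (Kbz). Where GC was 80% or more the share in control Kac was 46.7% (Wilson 95% interval 42.8 to 50.5), that in SB Kac 40.3% (36.6 to 44.1) and that in Kbz 59.0% (54.6 to 63.2), against 14.5%, 13.6% and 19.4% at 60 to 70% GC. It was high again in starts of under 40% GC, at 67.7%, 69.8% and 84.8%. These intervals cover counting error only. The part of GC content in the gaps was not tested.

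**Figure D3:**
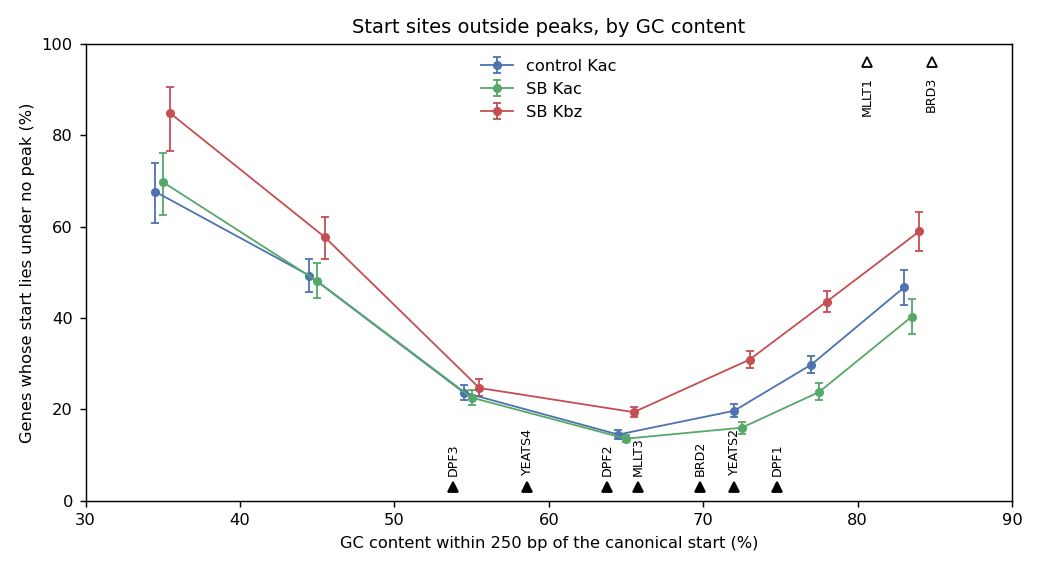
Percent of coding genes with a promoter peak whose canonical TSS lies under no peak, on the y axis, by the percent GC within 250 bp of the TSS on the x axis, with Wilson 95% bars and 1 line per list. Triangles mark the GC of the reader genes, open for MLLT1 and BRD3 whose start is under no peak, and their height carries no value.

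The 200 bp just upstream of 3 starts (hg38, in the direction of the gene) are printed to show the range, with CpG in capitals. The start of YEATS4 was under all 3 marks, and those of MLLT1 and BRD3 under none. YEATS4, chr12:69359510-69359709 on the plus strand, had 46.0% GC and 8 CpG. MLLT1, chr19:6279976-6280175 on the minus strand, had 77.0% and 25, and BRD3, chr9:134068027-134068226 on the minus strand, 86.5% and 38. Of these 3 picked stretches, the one under peaks had the fewest CpG. The ratio of CpG observed to that expected from base content, within 250 bp of the canonical TSS, set them less apart. It was 1.00 at YEATS4, 1.01 at MLLT1 and 1.08 at BRD3, and 0.988 at YEATS2, whose start was also under all 3 marks.
YEATS4: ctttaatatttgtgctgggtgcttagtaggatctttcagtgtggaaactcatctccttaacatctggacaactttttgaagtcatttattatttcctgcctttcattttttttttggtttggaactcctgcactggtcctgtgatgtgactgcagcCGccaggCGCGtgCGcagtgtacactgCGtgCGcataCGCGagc
MLLT1: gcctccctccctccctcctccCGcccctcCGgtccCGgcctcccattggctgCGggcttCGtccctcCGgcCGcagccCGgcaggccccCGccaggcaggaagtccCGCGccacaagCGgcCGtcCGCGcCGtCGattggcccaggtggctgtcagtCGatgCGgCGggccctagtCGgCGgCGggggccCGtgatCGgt
BRD3: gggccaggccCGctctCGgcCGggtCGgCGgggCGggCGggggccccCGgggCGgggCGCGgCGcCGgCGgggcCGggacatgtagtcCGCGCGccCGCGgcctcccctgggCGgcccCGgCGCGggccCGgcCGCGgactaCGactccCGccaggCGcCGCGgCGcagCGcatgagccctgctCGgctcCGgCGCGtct

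RefSeq promoters (GRCh38.p14, from 250 bases before to 50 after a start) were found for all 9 genes, 13 in number. On either strand, the CCAAT box, spelled CCAAT, was in 7 of 13, against 34.6% of 35116 promoters. The GC box, spelled GGGCGG, was in 9 of 13 against 45.0%, and the TATA box, spelled TATAAA, in 0 of 13 against 11.5%. These are matches of letters only, counted by promoter and not by gene. BRD2 and DPF3 each had more than a single promoter among the 13, so the counts are not of independent genes. The RefSeq start of DPF1, 5473 bp upstream of the canonical TSS, lay under no peak, and so did that of YEATS2, 12442 bp downstream.

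Kbz at the reader genes lay almost wholly inside Kac. All 18 Kbz peaks overlapped a Kac peak of both lists, 100% (82.4 to 100), where 95.5% of the Kbz peaks at all coding genes overlapped SB Kac and 94.6% control Kac. Of 27.3 kb of Kbz, 98.5% was under SB Kac and 92.0% under control Kac. The converse did not hold, since Kbz covered 21.4% of the SB Kac bases and met 16 of 53 SB Kac peaks, 30.2% (19.5 to 43.5), against 36.4% at all coding genes. That share turned on MLLT3, and over the other 8 genes it was 15 of 31, 48.4% (32.0 to 65.2). SB Kac peaks with Kbz had a median percentile of 79.9, from 20.6 to 99.6, and those without had 35.6, from 1.22 to 67.5. The ranges overlapped. At all coding genes the median percentiles were 84.0 and 33.5. Median lengths with and without Kbz were 1741 and 1726 bp at the reader genes, against 2616 and 927 bp at all coding genes.

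Of the 18 Kbz peaks, 14 were at a promoter of their own gene, 77.8% (54.8 to 91.0), against 65.6% at all coding genes. For control Kac it was 18 of 51, 35.3% (23.6 to 49.0), and for SB Kac 21 of 53, 39.6% (27.6 to 53.1), against 45.4% at all coding genes in both. Without MLLT3 these Kac shares were 53.8% (35.5 to 71.2) and 58.1% (40.8 to 73.6), and both intervals held 45.4%. The shares at all coding genes are over pairs of a peak and a gene. Promoters were counted first, so a promoter peak can also touch an exon or an intron. Among peaks at no promoter, 0 Kbz peaks but 25 control Kac and 23 SB Kac peaks were intronic. The intronic share over all coding genes is not given here, so these counts have no background beside them. The remaining 4 Kbz peaks were those upstream of DPF1, DPF2 and YEATS4 and at BRD3OS. Most of these intronic Kac peaks were at MLLT3 (chr9:20341669-20622499, minus strand), 281 kb long. Its 25 control Kac and 22 SB Kac peaks were more than at 97.7% and 96.5% of the 3667 coding genes of at least 100 kb, whose median was 4. Its single Kbz peak, 5620 bp long from 2485 bp upstream to 3134 bp downstream of the TSS, lay inside Kac peaks of 12395 and 12116 bp and stood at 39.1, with Kac at 69.7 and 81.6. Of the 136 coding genes with at least 22 SB Kac peaks, the median number of Kbz peaks was 5, and 4 genes had 1 or fewer. By length the order differed, since Kbz covered 1.93% of the MLLT3 window, more than at 81.1% of the coding genes of at least 100 kb.

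**Figure D4:**
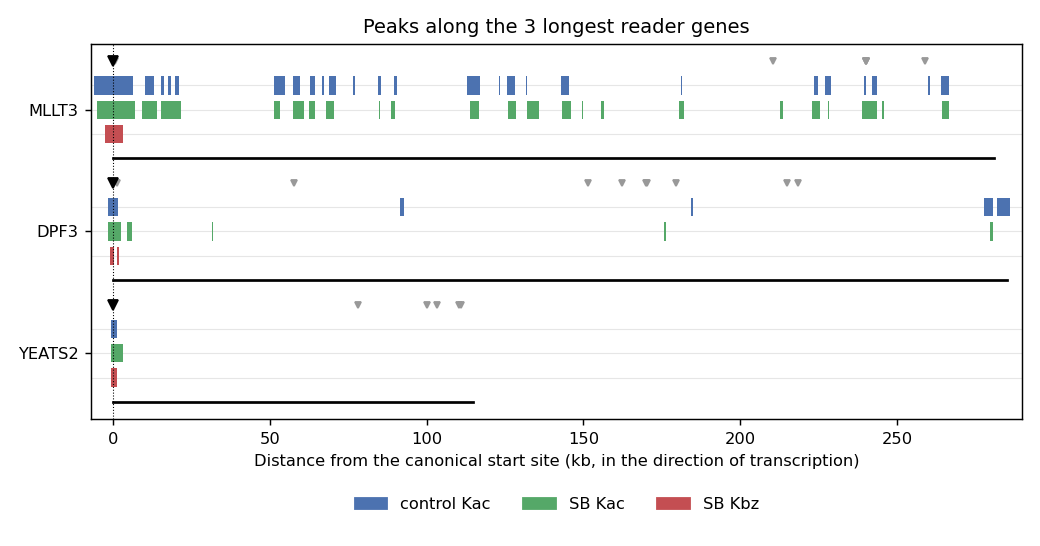
Peaks along DPF3, MLLT3 and YEATS2, the reader genes over 100 kb, with distance in kb from the canonical TSS on the x axis and 1 row per list. The black line is the gene body, and MLLT3 has Kac bars along its whole length with 1 Kbz bar at the TSS.

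Kac in control and in SB-treated cells was compared by overlap and by covered length. Of the control Kac peaks, 43 of 51 met an SB Kac peak, 84.3% (72 to 91.8), against 69.7% at all coding genes, and 42 of 53 SB Kac peaks met a control one, 79.2% (66.5 to 88.0), against 71.7%. The intervals take peaks as independent, although many lie in the same gene. Without MLLT3 the shares were 22 of 26, 84.6% (66.5 to 93.8), and 24 of 31, 77.4% (60.2 to 88.6). Both of these intervals held the value of all coding genes. Most peaks of 1 list alone stood below the median fold of their list. The 8 control Kac peaks without SB Kac were at DPF3 (3), MLLT1 (1) and MLLT3 (4), with percentiles from 4.69 to 47.8 and a median of 24.2. The 11 SB Kac peaks without control Kac were at DPF1 (1), DPF2 (2), DPF3 (3), MLLT3 (4) and BRD3 (1), from 1.22 to 59.9 with a median of 26.3. Of all Kac peaks at the 9 genes, 10 of 51 in control and 11 of 53 in SB had an averaged q above 0.01. Being averages over the peak, these values do not tell whether a call passed the stated FDR. The peaks with an averaged q above 0.01 included control-only peaks at DPF3, MLLT1 and MLLT3 and SB-only peaks at DPF1, DPF2, DPF3 and MLLT3. None of the peaks of 1 list alone met a Kbz peak. At all coding genes 35.1% of control Kac and 36.4% of SB Kac peaks met one. The share among the 1-list Kac peaks of all coding genes is not given here, so this count has no matching background. By gene, 3 of 9 had a control-only Kac peak against 39.1% of coding genes, and 5 of 9 an SB-only one against 35.6%. The shares of coding genes also count those with no Kac peak at all.

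The Kac peaks found in 1 list alone lay as follows. At DPF1 an SB Kac peak of 2871 bp at the percentile 26.3 lay beyond the 3' end, inside SIPA1L3. At DPF2 both SB-only peaks, one at 47.4 and the other lower, were near TIGD3, the coding gene just downstream of it. At BRD3 an SB Kac peak of 918 bp at 35.6 lay at an internal start 23.7 to 24.6 kb downstream of the canonical TSS. The SB-only peaks of DPF3 reached the highest rank, 59.9, in an intron 176 kb from the TSS, and the control-only peak of highest rank, 47.8, was also at DPF3, at its 3' end. At MLLT1 the control-only peak was intronic, 528 bp long and at 26.0. At MLLT3 the control-only peaks ranked up to 25.2 and the SB-only peaks up to 32.0, scattered over the gene body.

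At MLLT1, MLLT3 and BRD3 the intronic Kac peaks of highest rank were shared by both lists. The strongest one of MLLT1, 5.04 to 8.56 kb downstream of the TSS in control, stood at 70.6 in control and 64.4 in SB, in control above the 52.6 of the Kac peak nearest to the TSS. The strongest of MLLT3 stood at 66.6 in control, 68.9 to 71.2 kb from the TSS, and at 67.5 in SB, 57.4 to 61.0 kb from it. The intronic peak of BRD3 stood at 46.3 and 55.6. None of these met a Kbz peak, including those that ranked near the promoter Kac peaks of the same gene.

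SB Kac covered more of the window than control Kac at 6 of 9 genes, DPF1, DPF2, MLLT3, YEATS2, BRD2 and BRD3, and less at DPF3, MLLT1 and YEATS4. Of all coding genes, 40.9% had more under SB Kac. That share also counts genes with no SB Kac peak, which cannot have more. Such a peak was present at 81.4% of coding genes and at all 9 reader genes. The share over coding genes with peaks is not given here. The covered share went from 16.8% to 23.1% at DPF1, from 14.6% to 24.1% at DPF2, from 16.9% to 21.2% at MLLT3, from 1.49% to 3.09% at YEATS2 and from 18.2% to 22.9% at BRD3. It went from 14.2% to 10.6% at MLLT1 and from 8.92% to 7.10% at YEATS4. Over all windows control Kac covered 11.4%, SB Kac 13.1% and Kbz 2.84%, while the whole lists went the other way, with 130 Mb under control Kac and 115 Mb under SB Kac. The members' medians of 14.6%, 21.2% and 3.80% compare with 7.24%, 7.14% and 2.32% over all coding genes. Depth is unknown and was not matched between the lists, so no change in the chromatin can be read from these values.

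**Figure D5:**
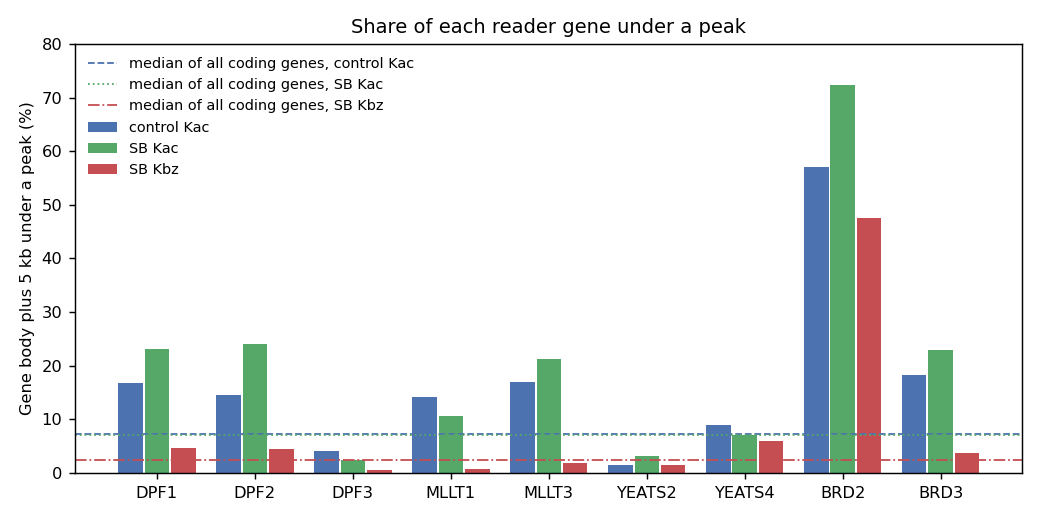
Percent of each gene body plus 5 kb lying under a peak, for the 9 reader genes and the 3 lists. BRD2 has the highest share in every list, 57.0%, 72.3% and 47.5%, and DPF3 the lowest Kbz share, 0.510%.

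Promoter peaks at related genes were counted too, beside 76.5%, 75.7% and 64.6% of all coding genes with one of control Kac, SB Kac and Kbz. Of 31 other acyl-lysine reader genes, 28 had a promoter peak of Kac in control, 28 after SB, and 25 one of Kbz. The chromatin remodeller subunit BPTF was without one in control Kac and Kbz, the nuclear body genes SP100 and SP140 in every list, SP110 in SB Kac and Kbz, and BRD7 and SMARCA2 in Kbz. All 37 genes for partners in the BAF, super elongation, DOT1L, ATAC, TIP60 and SRCAP complexes had a promoter peak in all 3 lists, against 64.1% of coding genes. Of 9 acetyltransferase genes all had promoter Kac in both lists and 7 had Kbz, with KAT2B and KAT8 lacking it. Of 17 deacylase genes all had promoter Kac and 16 had Kbz, the exception being HDAC9. The median covered share of the other reader genes was 4.36%, 5.18% and 2.03% in control Kac, SB Kac and Kbz, below the 14.6%, 21.2% and 3.80% of the 9 genes. That of the partners was 13.3%, 12.6% and 4.49%, and that of the acetyltransferases 9.79%, 9.05% and 2.86%. The deacylases had 16.3%, 19.6% and 7.31%, above the 9 genes in control Kac and Kbz and below them in SB Kac. A high covered share was thus not particular to the 9 genes.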

How the data were processed

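ChIP-seq peak lists of control Kac, SB Kac and SB Kbz were used, with 1 library each. From the labels and the study's methods, the authors digested chromatin with micrococcal nuclease, pulled down 30 µg with 3 µg of pan antibody, obtained 50 bp single reads, mapped these with Bowtie2 2.2.6 to hg38, used SAMtools 0.1.19 and called peaks with MACS2 2.1.1 at an FDR of 0.01. The deposited −log10 q, an average over the peak, has a lowest value of 1.31 in each list. How it relates to the stated FDR is not given. The deposited score is an integer for display and was not used. The deposited fold, a linear ratio of read density over background, was used only for percentiles inside each list. As thresholds, the deposited −log10 q and −log10 p were used. All are averages over a broad peak.

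Genes and starts came from GENCODE 44 on 24 chromosomes, and 3 peaks of control Kac elsewhere were dropped. An overlap was at least 1 bp, a promoter was within 3 kb of any annotated TSS, and shares carry Wilson 95% intervals. No test between groups was made. Python 3.11.15, numpy 2.4.6, scipy 1.17.1, matplotlib 3.10.9 and bedtools 2.31.1 were used. Tested on simulated data, the code for overlaps recovered 1000 of 1000 planted overlaps per list, and 0 of 6 counts differed from bedtools. The genes, the lists of other readers, partners, acetyltransferases, deacylases and markers, and the alternatives were chosen with earlier results of these data known. All 9 genes are named, and of the other lists only those without a promoter peak where most of their list had one. Some items are not reported here.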

Additional observations from a re-analysis of the deposited data

How the results depend on the processing

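No paired analysis was possible because there was 1 library per group, and for the same reason no replicate could be left out. Of 117 recomputations of 16 results under 12 alternatives, 91 stayed the same, meaning within 1.5 times for counts and covered percents and within its own Wilson interval for an overlap share, and 26 moved. Some of these could hardly move: merging peaks within 1 kb changed no value, and gene counts at 9 of 9 could not rise. A fall from 9 to 6 genes also counted as the same. Fewer peaks pass a stricter threshold by construction. With the 15000 strongest peaks of each list, 5 genes kept a control Kac peak and 4 a promoter one, against 43.9% of coding genes with a promoter one, there were 7 peaks of control Kac, 12 of SB Kac and 8 of Kbz, 3.06%, 4.55% and 1.66% of the windows was covered, and SB Kac met control Kac at 50% and Kbz at 66.7% of its peaks. With a −log10 q of at least 5, 5 genes had a promoter peak in control Kac and 5 in Kbz, against 53.0% and 45.4% of coding genes, the peaks numbered 10, 12 and 6, the covered percents were 3.59%, 4.55% and 1.54%, and 50% of SB Kac peaks met Kbz. With a −log10 q of at least 2, 8 genes had promoter Kbz, MLLT1 being lost. Asking for 50% of the peak gave 66.7% for control Kac with SB Kac, 60.4% for SB Kac with control Kac and 13.2% for SB Kac with Kbz. Asking for 50% of both peaks gave 49.0%, 47.2% and 13.2%, and 38.9% for Kbz with SB Kac. Of 10 values recomputed without MLLT3, chosen after seeing the data, 7 stayed the same. The others were 26 control Kac peaks, 31 SB Kac peaks and a share of 48.4% of SB Kac peaks with Kbz. Beyond construction, the cause was not tested. Unknown depth limits every comparison of peak numbers between lists.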
